A study of Homo sapiens with 12 samples.

Results

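The genes described here are those of cholesterol and fatty acid synthesis and of the system that controls them, built around the sterol regulatory element-binding proteins (SREBP). They were chosen by name: 33 gene symbols were looked up in the table of raw read counts, and 32 of them had a row among its 20771 genes. ACACA was not analysed here. All 32 passed the filter on low counts, which left 16515 genes in the table to be tested. TMEM97 and LRP8 were put on the list because they had been seen to fall in only 1 of the lines, so their values are given as a description, with no test, and the counts below cover the other 30 genes.

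RNA-seq was performed on the lines EW8-RRM1-KO and, alongside it, TC71-RRM1-KO, which derive from the Ewing sarcoma cell lines EW8 and TC71. In both, the endogenous RRM1 gene, which encodes the catalytic subunit of ribonucleotide reductase, was knocked out with CRISPR/Cas9, and a codon-optimized RRM1 transgene is expressed only while doxycycline is present. The libraries labelled 0 h came from cells with doxycycline and those labelled 48 h from cells without doxycycline for 48 hours, with 3 libraries in each of the 4 groups and all cells in medium with serum. Each line was a single-cell clone, so line and clone cannot be told apart, and without a group that lacks the knockout the removal of doxycycline and the loss of RRM1 cannot be told apart either.

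In background, SREBF2 and SREBF1 encode membrane-bound transcription factors that are held in the endoplasmic reticulum with SCAP. When sterols are plentiful, INSIG1 retains SCAP there. When they fall, SCAP escorts the SREBP proteins to the Golgi, where proteases release the part that enters the nucleus and raises the genes of the mevalonate pathway, of the later steps to cholesterol, of sterol uptake and of fatty acid synthesis. Growing tumor cells use these products for membranes, and serum supplies both sterols and fatty acids from outside.

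The promoter sequences of 6 of the genes are shown because these genes carry the main contrasts below. TMEM97 and LRP8 were lower at 48 h in EW8 with near-level values in TC71, INSIG1 had the largest difference in response between the lines among the 30 genes tested, MSMO1 and HMGCS1 were among the largest decreases in both, and SREBF2 encodes the SREBP most closely tied to sterol synthesis. Each sequence is the 250 bases before the RefSeq start of the gene in GRCh38.p14, read 5′ to 3′ on the gene's own strand. They lie at chr17:28318950-28319199 (plus strand, TMEM97), chr1:53328071-53328320 (minus, LRP8), chr7:155297628-155297877 (plus, INSIG1), chr22:41832855-41833104 (plus, SREBF2), chr5:43313413-43313662 (minus, HMGCS1, 1 of its 2 listed starts) and chr4:165327419-165327668 (plus, MSMO1). Capitals mark the letters TCACNCCAC, a form of the sterol regulatory element (SRE), the palindromic E-box TCACGTGA and the CCAAT box that NF-Y binds, each on either strand, so that CCAAT on the other strand reads ATTGG. These motifs do not overlap each other in the sequences shown.
TMEM97: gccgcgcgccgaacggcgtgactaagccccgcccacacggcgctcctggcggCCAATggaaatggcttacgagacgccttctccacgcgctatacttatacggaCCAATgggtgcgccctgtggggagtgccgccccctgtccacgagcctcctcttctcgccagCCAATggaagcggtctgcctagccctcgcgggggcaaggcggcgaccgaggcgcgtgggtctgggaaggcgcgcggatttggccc
LRP8: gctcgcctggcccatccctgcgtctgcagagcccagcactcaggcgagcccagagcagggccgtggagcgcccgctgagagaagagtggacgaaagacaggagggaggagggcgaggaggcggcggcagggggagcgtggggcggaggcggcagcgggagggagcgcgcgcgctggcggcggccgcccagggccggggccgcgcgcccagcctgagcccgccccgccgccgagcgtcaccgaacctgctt
INSIG1: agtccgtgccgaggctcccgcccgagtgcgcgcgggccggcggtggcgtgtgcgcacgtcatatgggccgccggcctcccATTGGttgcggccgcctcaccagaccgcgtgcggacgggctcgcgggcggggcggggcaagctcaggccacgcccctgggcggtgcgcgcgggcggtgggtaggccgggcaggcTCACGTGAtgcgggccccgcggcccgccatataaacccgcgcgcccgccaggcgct
SREBF2: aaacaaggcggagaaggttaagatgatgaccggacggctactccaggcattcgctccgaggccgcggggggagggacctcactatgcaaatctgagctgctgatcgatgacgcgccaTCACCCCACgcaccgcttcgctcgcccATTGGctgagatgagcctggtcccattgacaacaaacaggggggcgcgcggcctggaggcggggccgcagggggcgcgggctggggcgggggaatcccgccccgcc
HMGCS1: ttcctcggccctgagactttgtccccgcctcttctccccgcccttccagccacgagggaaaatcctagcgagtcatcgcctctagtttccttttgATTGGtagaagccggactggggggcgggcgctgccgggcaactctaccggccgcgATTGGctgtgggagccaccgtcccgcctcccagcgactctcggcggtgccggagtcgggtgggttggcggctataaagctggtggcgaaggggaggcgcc
MSMO1: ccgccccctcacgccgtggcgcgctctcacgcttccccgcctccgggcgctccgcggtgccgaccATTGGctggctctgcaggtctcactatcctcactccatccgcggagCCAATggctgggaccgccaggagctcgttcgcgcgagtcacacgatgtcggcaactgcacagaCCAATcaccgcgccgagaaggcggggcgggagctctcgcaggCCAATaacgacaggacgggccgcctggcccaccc

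The CCAAT letters stood in 5 of these 6 sequences, 4 times in MSMO1 and 3 times in TMEM97, and LRP8 held none of the 3 motifs. For LRP8, INSIG1, HMGCS1 and, by 2 bases, MSMO1 the GENCODE release 44 gene model begins further upstream than the RefSeq start used here. Promoters of 300 bases (the 250 bases before and the 50 after the start) were found in RefSeq for 28 of the 32 genes, 35 promoters in all, and not for FDFT1, SQLE, FASN and ACAT2. CCAAT was in 23 of the 35 (65.7%), against 34.6% of all 35116 promoters in that table and 34.5% of the 15896 that belong to the genes tested. The GC box GGGCGG was in 32 of the 35 (91.4%), against 45.0% of all promoters and 64.7% of those of the genes tested. The SRE-like letters were found in SREBF2 only, 1 of the 35 (2.86%), against 1.13% of all promoters and 1.07% of those of the genes tested. The palindromic E-box was found in INSIG1 only, also 1 of the 35, against 0.980% and 1.66%. A match is a description of letters and not a site of binding. A missing match does not show that a gene lacks an SRE, since only 1 form of it was searched in 300 bases.

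Counts per library summed to between 18468485 and 35698991, and the spread of counts between replicates, as a biological coefficient of variation, was 4.17%. That value is over all 4 groups. Pairs of replicates differed most in TC71 at 48 h, with a chi-square per gene of 4.93 to 9.16, against 1.98 to 4.59 in the other groups. The labels do not say whether the 3 libraries of a group came from separate cultures, so the p-values measure the spread between these libraries, which may be technical. RRM1 was counted at 214, 166 and 317 reads in the EW8 libraries at 0 h and at 1201, 1449 and 1514 at 48 h, and at 422, 316 and 418 and then 674, 707 and 778 in TC71. Its counts were thus higher after the removal of doxycycline in both lines (log2 fold change 2.88 ± 0.07 (SE) in EW8 and 0.65 ± 0.07 in TC71). Whether reads of the codon-optimized transgene entered this row is not given in the sources used here, so it does not check the labels. All 10 Ewing sarcoma markers were at 5 counts per 1000000 (CPM) or more in every group. Of the listed markers of other cells, 2 of 5 blood cell genes had a row and summed to at most 0.373 CPM. The 4 of 6 fibroblast genes with a row summed to between 157 and 161 CPM at 0 h and between 216 and 220.1 CPM at 48 h in EW8, and to between 67.1 and 68.4 and then 93.7 and 98.3 CPM in TC71. The 3 of 5 epithelial genes with a row summed to between 6.92 and 9.39 and then 21.4 and 23.2 CPM in EW8, and to between 71.1 and 73.1 and then 98.4 and 111.5 CPM in TC71. Most of the epithelial sum was KRT18 (means of 7.53 and then 18.9 CPM in EW8, 65.45 and then 94.91 in TC71), with EPCAM at a mean of 1.46 CPM at most. Most of the fibroblast sum in EW8 was COL3A1 (129 and then 151 CPM). Among the defining markers, CDH1, KRT19, PDGFRA, COL1A2, CD3E and HBB were not analysed here. The fibroblast and epithelial sums were both higher at 48 h in both lines, and their part in the results below was not tested.

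TMEM97 encodes a sterol-regulated membrane protein, the sigma-2 receptor, which binds the cholesterol transporter NPC1. TMEM97 was at 103, 94.9 and 102 CPM in the EW8 libraries at 0 h and at 39.0, 41.4 and 37.6 CPM at 48 h, while in TC71 it was at 72.7, 71.0 and 71.0 and then 67.4, 67.8 and 66.9 CPM. The EW8 groups were far apart, and the TC71 groups also did not overlap but lay close together. The log2 fold change was -1.35 ± 0.05 (SE) in EW8 and -0.09 ± 0.05 in TC71. LRP8 encodes a receptor of the lipoprotein receptor family that takes up apolipoprotein E particles and transmits the reelin signal. LRP8 stood at 57.1, 57.1 and 56.6 CPM at 0 h and 22.5, 25.1 and 24.8 CPM at 48 h in EW8, and at 41.2, 38.0 and 42.4 and then 42.6, 42.6 and 40.5 CPM in TC71. Its libraries separated in EW8 and overlapped in TC71, with log2 fold changes of -1.24 ± 0.06 and 0.04 ± 0.05. TMEM97 shares 12.3% of its exon bases in GENCODE release 44 with a neighbor, IFT20. In these bulk libraries, fewer transcripts in each cell and a change in which cells were present cannot be told apart.

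The question for the other genes was whether the sterol pathway moved with this pair in EW8 and stayed level in TC71. In EW8 it moved: of the 30 genes tested, 27 fell at an adjusted p below 0.05 (edgeR quasi-likelihood test with Benjamini-Hochberg adjustment over all genes), 1 rose and 2 did not pass, and the libraries of these same 28 genes did not overlap between 0 h and 48 h. Over all genes tested in EW8, 31.6% fell and 37% rose, while 33.2% had non-overlapping libraries that were lower at 48 h and 37.9% ones that were higher. The genes that did not pass were TM7SF2 and HSD17B7, and the gene that rose was NPC1. In TC71, 14 of the 30 fell, 1 rose (NPC1 again) and 15 did not pass, against 19.2% and 22.9% of all genes that fell and rose. Libraries of the TC71 groups did not overlap for 15 genes that were lower at 48 h and for 1 that was higher, against 23.7% and 25.9% of all genes. The median log2 fold change of the 30 was -0.56 in EW8 and -0.11 in TC71, and that of all genes was 0.03 and -0.00. The median in TC71 was -0.19 without the first 48 h library of TC71 and -0.059 with libraries scaled by total counts alone. Because the list was drawn up with results of these libraries known, the shares describe it and are no independent evidence.

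**Figure D1:**
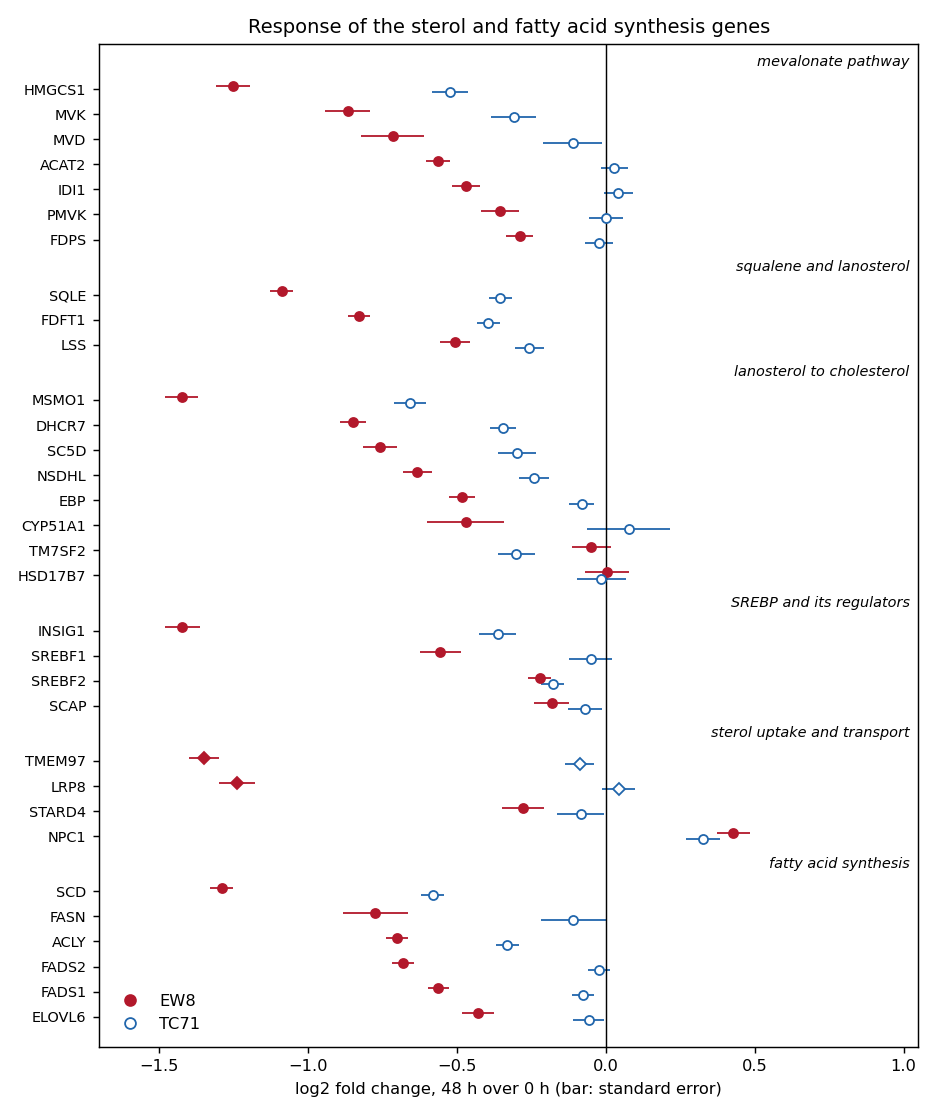
Log2 fold change at 48 h over 0 h (horizontal axis) of the 32 genes, grouped by role, in EW8 (filled red) and TC71 (open blue), with the standard error as a bar; diamonds mark TMEM97 and LRP8. In EW8 28 of the 30 circles lie below 0, and 27 of the 30 are lower in EW8 than in TC71.

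The difference between the lines was tested directly, as the response in EW8 minus the response in TC71. It was lower in EW8 for 24 of the 30 genes, higher for 1 (TM7SF2) and did not pass for 5, while 22.4% of all genes passed as lower and 25.7% as higher. The 5 were HSD17B7, SREBF2, SCAP, STARD4 and NPC1. Of the 14 among the 30 genes that fell in EW8 and did not pass in TC71, 12 passed this test. SCAP (adjusted p = 0.283) and STARD4 (adjusted p = 0.131) did not in the fit of all libraries. The 14 were picked by values that the test uses again. No matching share of all genes was counted, so the 12 are a description only. SCAP passed without the second 48 h library of TC71 (-0.18, adjusted p = 0.0379, edgeR), and STARD4 passed without the second 48 h library of EW8 (-0.26, adjusted p = 0.0447) or the third 0 h library of TC71 (-0.29, adjusted p = 0.0214). The remaining 13 genes that fell in EW8 fell in TC71 as well, and each of them had the more negative value in EW8, so TC71 did not stay level throughout the pathway. Across the 30 genes, the values in EW8 and TC71 had a Pearson r of 0.797 and a Spearman rho of 0.739, and across all 16515 genes 0.695 and 0.632. Genes are not independent replicates, and each value shares its libraries with the rest.

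**Figure D2:**
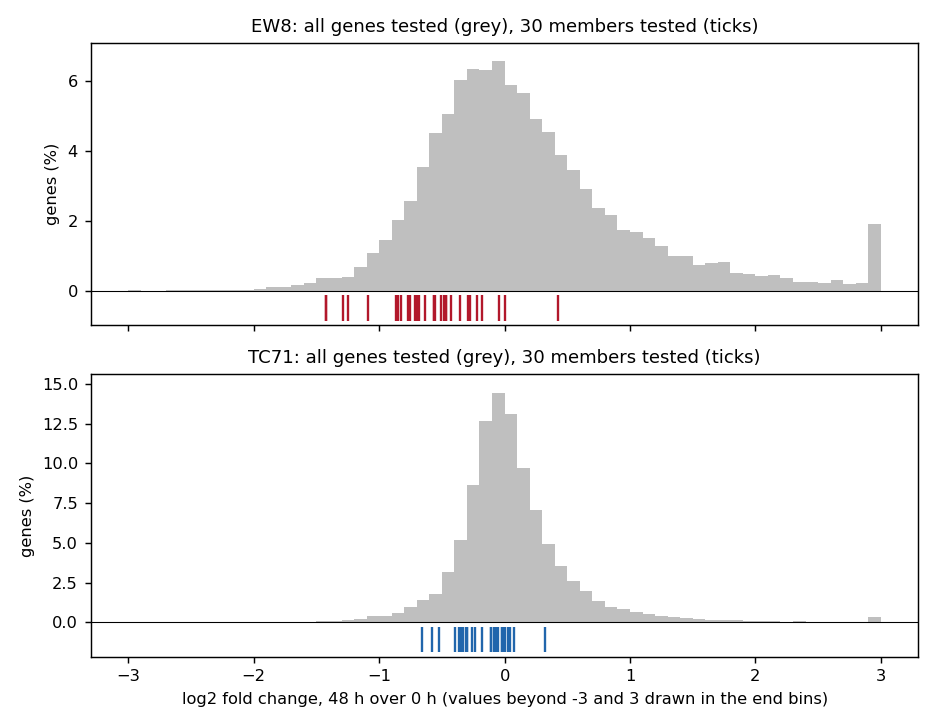
Percentage of the 16515 genes tested (vertical axis) by log2 fold change at 48 h over 0 h (horizontal axis, bins in grey) in EW8 (top) and TC71 (bottom), with the 30 genes tested as ticks under the axis. The ticks have a median of -0.56 in EW8 and -0.11 in TC71 (-0.19 without the first 48 h library of TC71), while the medians of all genes are 0.03 and -0.00.

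Among the regulators, INSIG1, which retains SCAP in the endoplasmic reticulum and is itself a target of SREBP, changed most. It was at 117, 108 and 121 CPM at 0 h and at 43.8, 41.7 and 43.9 CPM at 48 h in EW8. In TC71 it was at 40.7, 37.5 and 45.3 and then at 32.6, 33.8 and 30.2 CPM. The groups separated in both lines, and EW8 after 48 hours lay in the range of TC71 at 0 h. The log2 fold change was -1.42 ± 0.06 (SE) in EW8 and -0.36 ± 0.06 in TC71, a difference of -1.06 ± 0.09 that was the only one above 2-fold among the 30 genes (adjusted p = 5.73e-12, edgeR). With total counts alone this difference was -0.98 and no gene exceeded 2-fold.

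SREBF1 encodes the SREBP most closely linked to fatty acid synthesis. Its level was 113, 125 and 109.7 CPM at 0 h and 81.5, 75.5 and 79.4 CPM at 48 h in EW8, and 65.4, 64.5 and 61.1 and then 70.4, 54.9 and 59.4 CPM in TC71. The EW8 groups separated and the TC71 groups overlapped (log2 fold change -0.55 ± 0.07 and -0.05 ± 0.07, adjusted p of the difference = 0.000312). Without the first 48 h library of TC71, the highest of its group, SREBF1 fell in TC71 too (-0.15, adjusted p = 0.0367, edgeR). SREBF2 was at 435, 467 and 436 and then 386, 377 and 385 CPM in EW8, and at 255, 261 and 253 and then 232, 216 and 233 CPM in TC71. Both lines showed separate groups with a small decrease of similar size (-0.22 ± 0.04 and -0.18 ± 0.04), and the difference of -0.04 ± 0.05 did not pass (adjusted p = 0.546). SCAP, the escort protein, was at 145, 163 and 153 and then 140.3, 128 and 137 CPM in EW8, and at 156, 174 and 152 and then 162, 139.5 and 159 CPM in TC71. Its decrease in EW8 of -0.18 ± 0.06 passed (adjusted p = 0.00951) and its value of -0.07 ± 0.06 in TC71 did not. Without the second 48 h library of EW8 the SCAP value was -0.14 (adjusted p = 0.0573), and with libraries scaled by total counts alone it was -0.06 and did not pass.

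**Figure D3:**
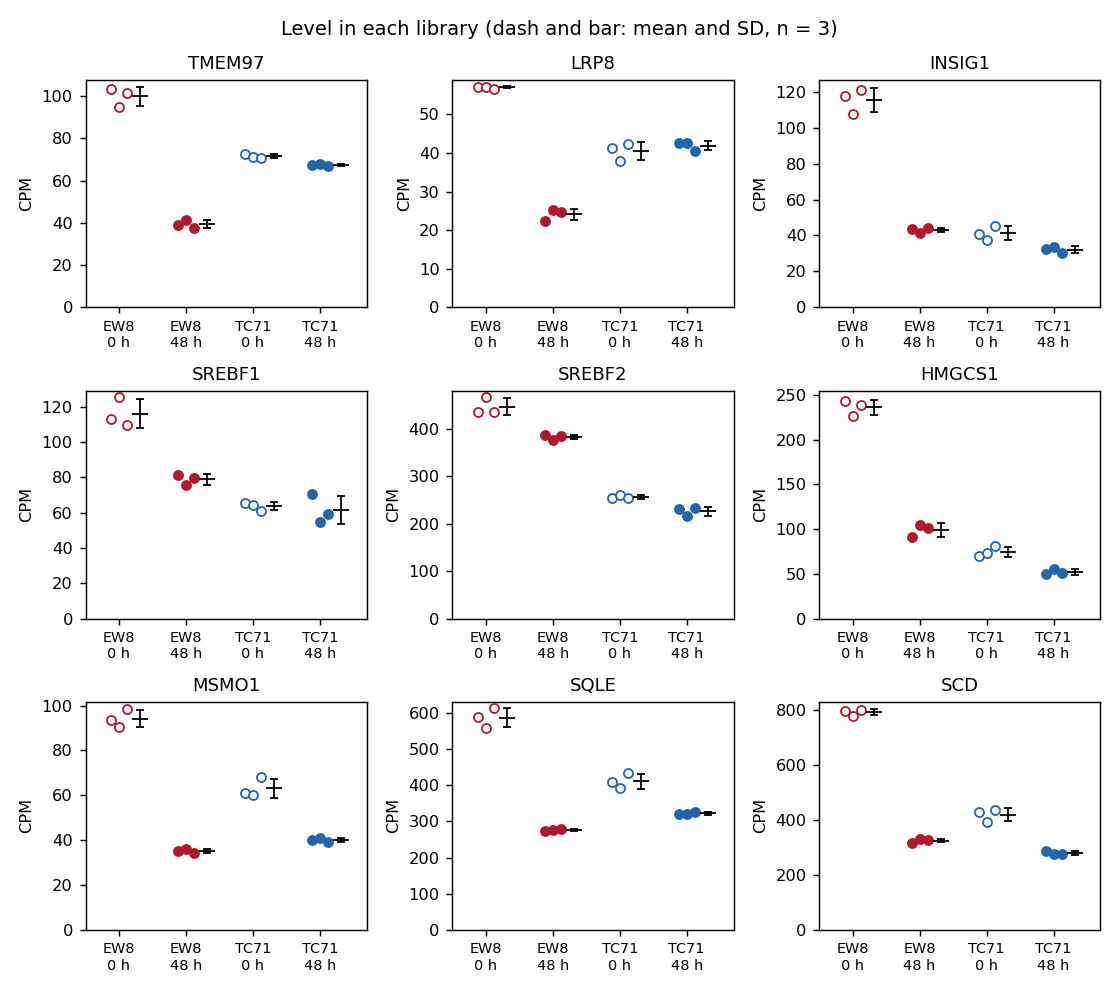
CPM on the vertical axis, from 0, in each library of 9 genes: open circles are 0 h and filled circles 48 h, red is EW8 and blue is TC71, and the dash with its bar is the mean ± SD of 3 libraries. TMEM97 and LRP8 drop in EW8 with nearly level TC71 values, INSIG1, HMGCS1, MSMO1, SQLE and SCD drop in both lines, and SREBF2 moves little in either.

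The mevalonate pathway builds the isoprenoid precursor of sterols from acetyl-CoA. All 7 of its genes fell in EW8, 2 of them (HMGCS1 and MVK) also fell in TC71, and all 7 passed the test of the difference as lower in EW8, beside 31.6%, 19.2% and 22.4% of all genes. HMGCS1, which makes HMG-CoA, was at 243, 226 and 238 CPM at 0 h and at 90.7, 105 and 102 CPM at 48 h in EW8, and at 69.9, 73.4 and 81.0 and then 49.8, 56.0 and 50.5 CPM in TC71. Both pairs of groups separated, with a decrease of 58.0% in EW8 and 30.4% in TC71 (log2 fold change -1.25 ± 0.06 and -0.52 ± 0.06, adjusted p = 1.14e-17 and 4.24e-08, edgeR). MVK, which phosphorylates mevalonate, fell by 45.1% in EW8 and by 19.3% in TC71. ACAT2, the acetyl-CoA thiolase that opens the pathway, fell by 32.3% in EW8 and had a log2 fold change of 0.03 ± 0.04 in TC71. MVD and IDI1, which make and isomerize isopentenyl diphosphate, had log2 fold changes of -0.71 and -0.47 in EW8 and of -0.11 and 0.04 in TC71. Without 1 library, the TC71 value of MVD ran from -0.21 to -0.0031. PMVK, the second kinase of the pathway, and FDPS, which makes farnesyl diphosphate, fell less (-0.35 and -0.29) and were at 0.00 and -0.02 in TC71. Of the exon bases, HMGCS1 shares 37.7% with an unnamed gene on the other strand, and ACAT2, FDPS and IDI1 share 22.2%, 18.6% and 14.97% with other genes, whose reads the authors' counting may have split.

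The 3 genes that turn farnesyl diphosphate into lanosterol fell in both lines (31.6% of all genes in EW8 and 19.2% in TC71), each further in EW8. SQLE, the squalene epoxidase, was at 589, 559.8 and 613 CPM at 0 h and at 274, 277 and 279 CPM at 48 h in EW8. In TC71 it was at 410, 392 and 434 and then at 320, 321 and 327 CPM. The groups were well separated in both lines (log2 fold change -1.09 ± 0.04 and -0.35 ± 0.04, difference -0.73 ± 0.06, adjusted p = 7.87e-13, edgeR). FDFT1, squalene synthase, fell by 43.6% and by 23.9%, which made it the fourth largest decrease of the 30 genes in TC71. LSS, which closes the ring to lanosterol, fell by 29.5% and by 16.3%.

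From lanosterol to cholesterol, 6 of 8 genes fell in EW8 and 5 in TC71, beside 31.6% and 19.2% of all genes. MSMO1, the sterol C4-methyl oxidase, had the largest decrease of the 30 in both lines. It was at 93.7, 90.5 and 98.4 and then 35.2, 36.0 and 34.4 CPM in EW8, and at 61.2, 60.1 and 68.0 and then 40.0, 40.9 and 39.3 CPM in TC71. This gave a log2 fold change of -1.42 ± 0.05 in EW8, -0.66 ± 0.05 in TC71 and a difference of -0.77 ± 0.08 (adjusted p = 3.83e-10, edgeR). DHCR7, SC5D and NSDHL, a reductase, a desaturase and a decarboxylating dehydrogenase of the late steps, fell by 44.4%, 40.8% and 35.4% in EW8 and by 21.2%, 18.6% and 15.3% in TC71. EBP, a sterol isomerase, fell in EW8 (-0.48 ± 0.04) and was at -0.08 ± 0.04 in TC71, with 36.4% of its exon bases shared with another gene on its strand.

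CYP51A1, the lanosterol demethylase, was counted at only 3.36 to 8.21 CPM over the 12 libraries, and 74.1% of its exon bases belong to other genes as well, so its row is uncertain. It fell in EW8 (-0.47 ± 0.13) and was at 0.08 ± 0.14 in TC71. Its difference of -0.55 ± 0.19 no longer passed when the third 0 h (-0.43), the first 48 h (-0.46) or the third 48 h library (-0.46) of TC71 was left out. TM7SF2, a sterol reductase, was the exception in the other direction. It ran from 39.9 to 48.4 CPM at 0 h and from 39.6 to 43.7 CPM at 48 h in EW8 (-0.05 ± 0.07, adjusted p = 0.534), and from 48.3 to 53.1 and then 38.6 to 44.4 CPM in TC71 (-0.30 ± 0.06). The difference of 0.25 ± 0.09 passed (adjusted p = 0.0228) and was lost without the first (0.18) or the third (0.20) 0 h or the second 48 h library (0.21) of EW8, or without the first 0 h (0.21) or second 48 h library (0.21) of TC71, so that the count of genes higher in EW8 fell from 1 to 0. HSD17B7, a reductase of the same stretch with a near-identical pseudogene in the genome, was at 0.00 ± 0.07 and -0.01 ± 0.08, with a difference of 0.02 ± 0.11.

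Of the tested genes of sterol uptake and transport, NPC1, which exports cholesterol from lysosomes, rose in both lines. It was at 52.8, 55.1 and 57.0 and then 69.8, 77.8 and 74.4 CPM in EW8, and at 43.6, 41.7 and 37.6 and then 50.8, 50.9 and 52.5 CPM in TC71. The groups separated in both lines (log2 fold change 0.43 ± 0.05 and 0.33 ± 0.06), and the difference of 0.10 ± 0.08 did not pass (adjusted p = 0.295). STARD4, a soluble sterol carrier, fell in EW8 by 17.5% and was at -0.08 ± 0.08 in TC71. With libraries scaled by total counts alone the STARD4 decrease in EW8 (-0.15) did not pass.

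All 6 fatty acid genes fell in EW8, SCD and ACLY alone passed in TC71 in the fit of all libraries, and all 6 passed the test of the difference, beside 31.6%, 19.2% and 22.4% of all genes. SCD, the desaturase that makes oleate, was at 799, 781 and 800.2 CPM at 0 h and at 318, 329 and 327 CPM at 48 h in EW8. In TC71 it was at 431, 392 and 436 and then at 288, 276 and 278 CPM. The groups separated in both lines (log2 fold change -1.29 ± 0.04 and -0.58 ± 0.04, difference -0.71 ± 0.05, adjusted p = 1.13e-12, edgeR). ACLY, which supplies cytosolic acetyl-CoA, fell by 38.5% and by 20.4%. FASN, the fatty acid synthase, had a mean of 1452 ± 131 CPM (SD, n = 3) and then 849 ± 56.9 in EW8, and of 844 ± 49.7 and then 783 ± 107 in TC71. Its replicates spread widely, and its decrease passed in EW8 (-0.77 ± 0.11) while TC71 was at -0.11 ± 0.11. Without 1 library, the TC71 value of FASN ran from -0.19 to -0.0062. FADS2 and FADS1, the desaturases of polyunsaturated fatty acids, were at -0.68 ± 0.04 and -0.56 ± 0.04 in EW8 and at -0.02 ± 0.04 and -0.08 ± 0.04 in TC71. FADS1 passed in TC71 without the first (-0.09) or the third (-0.09) 0 h library of EW8 or the second 0 h library of TC71 (-0.11). ELOVL6, which lengthens palmitate, had values of -0.43 ± 0.05 and -0.06 ± 0.05.

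A decrease above 2-fold with an adjusted p below 0.05 was found for 5 of the 30 genes in EW8 (MSMO1, INSIG1, SCD, HMGCS1 and SQLE) and for 0 in TC71, where 14 passed edgeR at any fold. With libraries scaled by total counts alone there were 4 in EW8, since SQLE was at -0.96. Such decreases made up 3.35% of all genes in EW8 and 0.854% in TC71. The same 5 genes led the differences between the lines, of which only INSIG1 exceeded 2-fold, against 0.981% of all genes. Of these 5, all but SQLE were also among the 5 largest decreases in TC71, where FDFT1 took its place.

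The lines already differed with doxycycline present. At 0 h, 25 of the 30 genes were higher in EW8 than in TC71, 2 were lower (PMVK and TM7SF2) and 3 did not pass (EBP, SCAP and ELOVL6), whereas over all genes 32.8% were higher and 32.9% lower in EW8. All EW8 libraries were above all TC71 libraries for 25 genes and below them for 1, against 34% and 34.3% of all genes. With total counts alone 5 were lower in EW8, since EBP (-0.18), SCAP (-0.20) and ELOVL6 (-0.17) passed. The median log2 ratio of EW8 to TC71 was 0.67 for the 30 and -0.01 for all genes, and 6 of the 30 were above 2-fold against 4.77% of all genes. ACAT2 was highest in relation, at a mean of 339 ± 11.4 CPM (SD, n = 3) in EW8 and 104 ± 3.87 CPM in TC71 (log2 ratio 1.71 ± 0.04 (SE), adjusted p = 6.38e-27, edgeR). HMGCS1 (1.66 ± 0.06), INSIG1 (1.48 ± 0.06), SC5D (1.34 ± 0.06), STARD4 (1.28 ± 0.07) and FDFT1 (1.12 ± 0.04, and 0.98 with total counts alone) followed. MVD had the smallest ratio that passed above 0 (0.24 ± 0.10, adjusted p = 0.0405), and it no longer passed without the second (0.24) or the third (0.20) 0 h or the third 48 h library (0.23) of EW8, or without the first (0.17) or the third (0.27) 0 h library of TC71. MVD also did not pass with total counts alone (0.11, adjusted p = 0.384, edgeR), with at least 10 counts in every library (0.22) or with the replicate block (0.21). TMEM97 and LRP8, given without a test, had ratios of 0.48 and 0.49.

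The levels after 48 hours in EW8 were set beside those of TC71 at 0 h. The 30 genes together summed to between 8203 and 8570 CPM in the EW8 libraries at 0 h and between 5075 and 5186 CPM at 48 h. In TC71 they summed to between 5028 and 5069 CPM at 0 h and between 4242 and 4551 CPM at 48 h. The EW8 groups were far apart and the TC71 groups did not overlap, with EW8 at 48 h just above the highest TC71 library at 0 h. These sums weigh the most abundant genes most. In EW8 at 0 h the highest means were those of FASN (1452 CPM), FADS2 (984), SCD (793), FADS1 (784) and SQLE (587). Against TC71 at 0 h, the median log2 ratio of the group means was 0.67 for EW8 at 0 h and 0.04 for EW8 at 48 h, when 16 of the 30 genes were above TC71 and 14 were not. Single genes at 48 h in EW8 were far from TC71 at 0 h in both directions, with log2 ratios of 1.14 for ACAT2, 1.01 for STARD4, 0.89 for HSD17B7 and 0.85 for NPC1, and of -0.84 for MSMO1 and -0.74 for PMVK. At 48 h in both lines, EW8 was still the higher for 22 of the 30, with a median of 0.21. The ratios at 0 h and at 48 h share their EW8 libraries with the response in EW8, and are given side by side only.

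**Figure D4:**
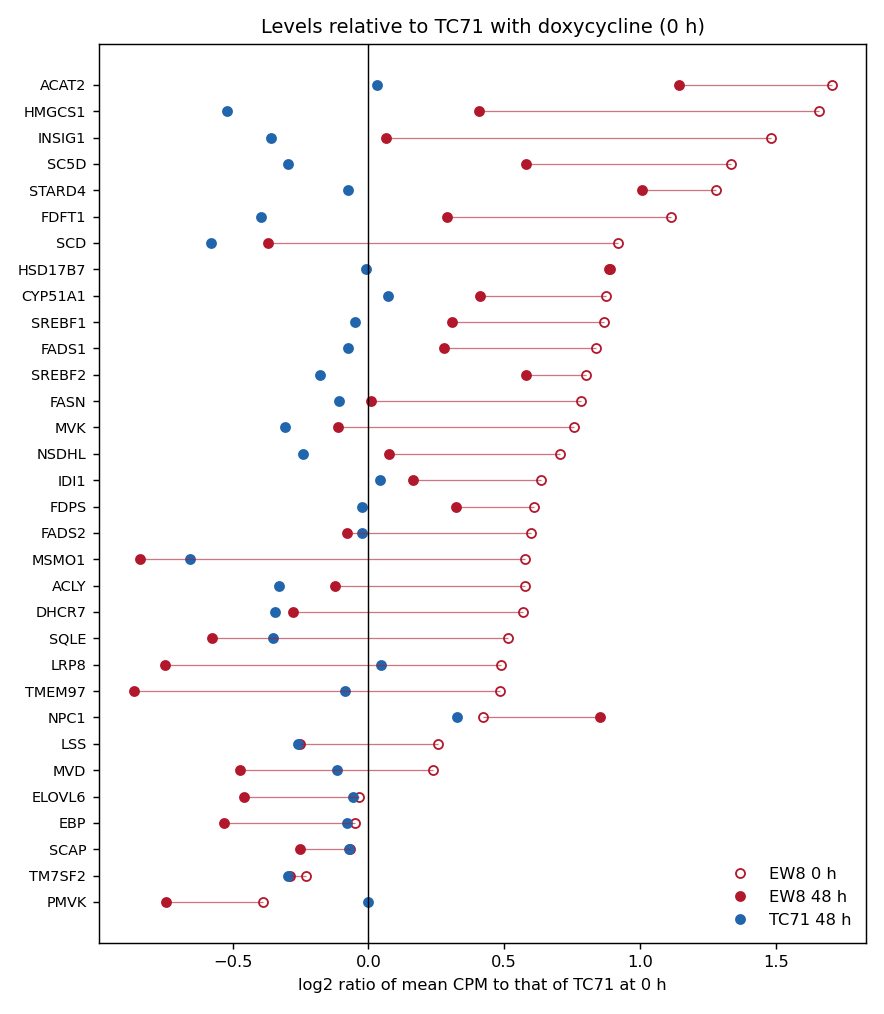
Log2 ratio of the mean CPM of each group to that of TC71 at 0 h (horizontal axis) for the 32 genes, sorted by EW8 at 0 h (open red), with EW8 at 48 h (filled red, joined by a line) and TC71 at 48 h (filled blue). Most open red points lie to the right of 0, and the filled red points lie on both sides of it, 16 of the 30 genes above 0 and 14 not.

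Per kilobase of exon, which allows levels to be compared between genes, FASN (156 CPM per kilobase), SCD (151), SQLE (136), ACAT2 (129) and ACLY (103) were highest in EW8 at 0 h. CYP51A1 (1.87), LRP8 (2.90) and MVK (3.92) were lowest. TMEM97, at 34.1 CPM per kilobase, was thus well above LRP8, while their decreases in EW8 were of similar size. The length is that of all exons of the gene in GENCODE release 44, which counts exons that these cells may not use.

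Neighboring pathways were counted from lists of genes outside the 32. Of 8 genes that process SREBP or degrade sterol-regulated proteins, 5 fell and 2 rose in EW8, and 3 fell and 2 rose in TC71. The shares over all genes, against which this and the next lists stand, were 31.6% that fell and 37% that rose in EW8, and 19.2% and 22.9% in TC71. MBTPS2, the site-2 protease, was at -0.31 in EW8 and -0.19 in TC71, the ubiquitin ligase RNF145 at -0.31 and -0.38, and RNF139, another such ligase, at -0.13 and -0.16. All these values passed the edgeR test. ERLIN2, which helps to hold SREBP in the endoplasmic reticulum, rose by 0.59 ± 0.05 (SE) in EW8 and by 0.12 ± 0.04 in TC71.

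Liver X receptors (LXR) respond to oxidized sterols and raise genes of sterol efflux. Of 8 genes on that list, 6 rose in EW8, 3 of them above 2-fold (13.9% of all genes), and 2 fell, while in TC71 3 rose and 5 did not pass. The shares of rising genes among all genes tested were 37% in EW8 and 22.9% in TC71, and of falling genes 31.6% in EW8. The 3 above 2-fold were APOE, the lipoprotein component (1.36 ± 0.25), NR1H3, which encodes LXR alpha (1.20 ± 0.14), and the phosphodiesterase SMPDL3A (1.04 ± 0.10). In TC71, NR1H3 (0.69 ± 0.12), SMPDL3A (0.33 ± 0.12) and APOE (0.32 ± 0.08) rose. The rises in EW8 began at low levels. APOE had means of 1.35 and then 3.46 CPM in EW8, far below its 70.4 and then 88.0 CPM in TC71. NR1H3 had means of 2.38 and then 5.36 CPM in EW8, and of 4.25 and then 6.8 CPM in TC71. The median of the list was 0.60 in EW8 and -0.01 in TC71, beside 0.03 and -0.00 for all genes.

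Of 11 genes of the isoprenoid branches, which use the products of FDPS, 5 fell and 4 rose in EW8, and 3 fell and 8 did not pass in TC71, beside the shares over all genes (31.6% and 37% in EW8, 19.2% that fell in TC71). NUS1, a subunit of the enzyme that makes dolichol precursors, moved most, at -0.92 ± 0.05 in EW8 and -0.37 ± 0.05 in TC71. The prenyltransferase subunits FNTB and PGGT1B went opposite ways in EW8 (-0.45 and 0.32) and were at -0.09 and -0.05 in TC71. RABGGTB, of another prenyltransferase, was at -0.32 in TC71 and -0.05 in EW8, and PDSS2, of coenzyme Q synthesis, at -0.18 and -0.14. Of 10 genes of sterol trafficking and esterification, 4 fell and 5 rose in EW8, and 1 fell and 4 rose in TC71, where the same shares over all genes were 19.2% and 22.9%. The sterol carriers GRAMD1B and GRAMD1A rose by 0.55 and 0.51 in EW8 and GRAMD1C fell there (-0.62), with values of -0.03, 0.19 and 0.13 in TC71. In both lines NCEH1, a cholesteryl ester hydrolase, SOAT1, which esterifies cholesterol, and the carrier STARD3 rose, by 0.47, 0.37 and 0.30 in TC71 and by 0.32, 0.24 and 0.39 in EW8.

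Of 19 genes of fatty acid supply, elongation and activation, 10 fell and 5 rose in EW8, and 2 fell and 7 rose in TC71, beside 31.6% and 37% of all genes in EW8 and 19.2% and 22.9% in TC71. FADS3 rose by 1.07 ± 0.06 in EW8 and by 0.40 ± 0.05 in TC71, unlike its neighbors FADS1 and FADS2. The elongases ELOVL4 (0.97 ± 0.06) and ELOVL7 (0.74 ± 0.18) also rose in EW8, and both rose in TC71 (0.29 ± 0.06 and 0.56 ± 0.17). SCD5, a second stearoyl-CoA desaturase, fell in EW8 (-0.31) and rose in TC71 (0.33), against a fall of SCD in both. Of 16 genes of fatty acid oxidation, 12 fell and 2 rose in EW8, and 4 fell and 2 rose in TC71. In the test of the difference, 13 of these 16 passed as lower in EW8 and 1 as higher. The supply list had 7 lower and 4 higher of its 19, beside 22.4% and 25.7% of all genes. CPT1A, which admits fatty acids to mitochondria, was at -0.81 ± 0.06 in EW8 and 0.03 ± 0.05 in TC71, ETFA at -0.55 and -0.22, and the isomerase ECI2 at -0.55 and -0.02. ACADVL, of the oxidation spiral, rose in both lines (0.49 in EW8 and 0.23 in TC71). HADH, of the same spiral, fell in EW8 (-0.23) and rose in TC71 (0.21). The medians of the supply and oxidation lists in EW8 were -0.13 and -0.31, beside 0.03 for all genes.

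**Figure D5:**
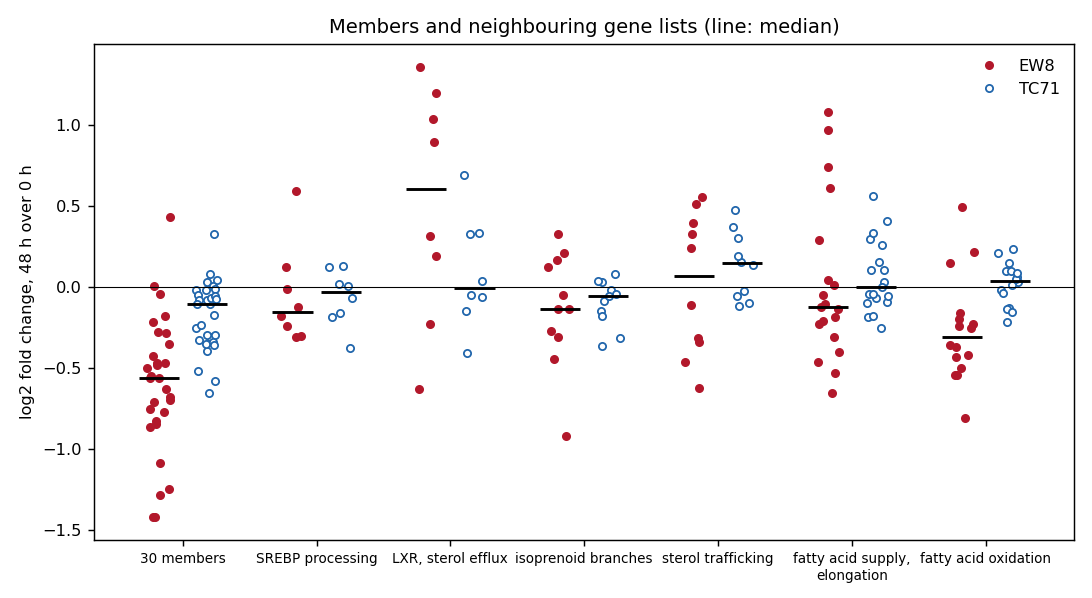
Log2 fold change at 48 h over 0 h (vertical axis) of single genes in EW8 (filled red) and TC71 (open blue) for the 30 genes tested and for 6 neighboring lists (horizontal axis, with random sideways jitter), with the median of each as a line. In EW8 the median of the 30 genes is -0.56, that of fatty acid oxidation -0.31 and that of the LXR list 0.60.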

How the data were processed

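PolyA RNA of 12 libraries (TruSeq Stranded mRNA) was sequenced by the authors, checked with FastQC and aligned to hg38 with STAR. The deposited values are raw read counts per gene, without normalization. The counting tool, annotation, strand setting and the low-count filter (the smallest row sum is 21) are not given in the sources used here. Library totals of 18468485 to 35698991 set the precision. Groups came from the sample titles.

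Genes were kept by filterByExpr (minimum count 10, minimum total 15), scaled by TMM and tested with edgeR 4.0.16 in R 4.3.3 (robust quasi-likelihood fit over 4 groups, Benjamini-Hochberg over 16515 genes), after a test on simulated data. The response of each line (48 h against 0 h), the difference of both responses, and EW8 against TC71 at 0 h were tested. CPM values use the TMM-scaled totals. SE is the standard error of the log2 fold change. DESeq2 1.42.0 and the settings of the closing section were alternatives. The members, the gene lists and the tests were chosen with earlier results of these data known. Genes named were TMEM97, LRP8, the 4 genes of the SREBP switch, the 5 largest changes per contrast and every other member, and from each other list up to 3 genes per line with the largest change among those with an adjusted p below 0.05, both with a mean of 20 counts in the lower group. Gene models are GENCODE release 44 and promoters RefSeq. Rows with a gene identifier but no symbol (773) stayed in the test. SPRING1, ABCG1, CH25H, ACSL6 and PDK4 were not analysed here, and ACSL5 did not pass the filter. Some items are not reported here.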

Additional observations from a re-analysis of the deposited data

Results flagged for a closer look

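The response to the removal of doxycycline differed between EW8 and TC71 for 25 of the 30 genes by edgeR's test of the difference, with 24 lower in EW8 and 1 higher. Of all genes tested, 22.4% passed as lower and 25.7% as higher. All values here are log2 fold changes in EW8 minus those in TC71. In the mevalonate pathway they were -0.59 for ACAT2, -0.73 for HMGCS1, -0.56 for MVK, -0.36 for PMVK, -0.60 for MVD, -0.51 for IDI1 and -0.27 for FDPS. From squalene to lanosterol they were -0.43 for FDFT1, -0.73 for SQLE and -0.25 for LSS. In the later steps they were -0.55 for CYP51A1, -0.77 for MSMO1, -0.39 for NSDHL, -0.40 for EBP, -0.46 for SC5D and -0.50 for DHCR7, and 0.25 for TM7SF2, the gene that was higher. Among the regulators they were -0.50 for SREBF1 and -1.06 for INSIG1. Among the fatty acid genes they were -0.37 for ACLY, -0.67 for FASN, -0.71 for SCD, -0.37 for ELOVL6, -0.49 for FADS1 and -0.66 for FADS2.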

How the results depend on the processing

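Scaling by total counts alone moved the median of all genes from 0.03 to 0.16 in EW8, from -0.00 to 0.05 in TC71, from 0.04 to 0.12 for the difference and from -0.01 to -0.14 at 0 h, and the median of the 30 genes to -0.44, -0.059, -0.40 and 0.54. Relative to all genes, the median of the 30 was -0.59, -0.11, -0.52 and 0.68 with total counts and -0.59, -0.11, -0.51 and 0.68 with TMM. Of all genes called, 64.1% rose in EW8 and 66.4% in TC71 with total counts, against 53.9% and 54.3% with TMM. The difference was higher in EW8 for 63.1% against 53.4% of calls, and at 0 h 36.0% against 49.9% were higher in EW8. With total counts, 25 genes and not 27 fell in EW8 and 4 and not 5 fell by more than 2-fold, 0 genes and not 1 (INSIG1) differed in response by more than 2-fold, 5 and not 6 were more than 2-fold higher in EW8 at 0 h and 5 genes and not 2 were lower in EW8 at 0 h. Without 1 library, the median ran from -0.61 to -0.56 in EW8 and from -0.19 to -0.10 in TC71, and 0 to 1 genes responded higher in EW8. The other counts and medians stayed within 1.5 times or within the spread between libraries under every alternative run: DESeq2 size factors, the DESeq2 Wald test, no filter, at least 10 counts in every library, each line alone, a fit that is not robust and the replicate block.

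The 13 single-gene values that changed sign did not pass the test with all libraries or, for LRP8, had none. With total counts alone they were 0.077 for TM7SF2 in EW8, 0.028 for FDPS, 0.036 for HSD17B7, 0.0010 for SREBF1 and 0.028 for FADS2 in TC71, and 0.031 for SREBF2 in the difference. HSD17B7 in EW8 was -0.0046 with DESeq2 size factors, -0.0049 with the DESeq2 Wald test, -0.0051 with no filter, -0.0066 with 10 counts in every library, -0.023 with each line alone and -0.0001 with the replicate block, and its difference was -0.0002 with 10 counts in every library. PMVK in TC71 was -0.0002 with the replicate block. Without 1 library, the ranges were -0.067 to 0.035 for HSD17B7 in EW8 and -0.071 to 0.060 for its difference, and in TC71 -0.0016 to 0.059 for ACAT2, -0.029 to 0.046 for PMVK, -0.055 to 0.017 for FDPS, -0.042 to 0.23 for CYP51A1, -0.061 to 0.071 for HSD17B7, -0.15 to 0.019 for SREBF1, -0.0023 to 0.077 for LRP8, -0.17 to 0.010 for STARD4 and -0.039 to 0.0019 for FADS2. Calls were lost for 5 gene values (SCAP and STARD4 in EW8, CYP51A1 and TM7SF2 in the difference, MVD at 0 h) and gained for 7 (SREBF1 and FADS1 in TC71, SCAP and STARD4 in the difference, EBP, SCAP and ELOVL6 at 0 h) under 1 or more settings, and the cause was not tested. Same-numbered libraries showed no shared deviation from their group means, with correlations between -0.138 and -0.0147. This cannot tell whether they were paired when made, and the labels do not say. With the replicate block, 27 genes fell in EW8, 14 fell in TC71, 24 responded lower in EW8 and 24 were higher in EW8 at 0 h, where MVD (0.21) was lost.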
